A study of Vitis vinifera with 6 samples.

Results

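The pathogenesis-related protein 10 (PR10) genes described here are 7 grapevine genes with neighbouring identifiers on chromosome 5, VIT_05s0077g01530, VIT_05s0077g01540, VIT_05s0077g01550, VIT_05s0077g01560, VIT_05s0077g01570, VIT_05s0077g01580 and VIT_05s0077g01600. They were taken by identifier, without regard to any measured value, and each of the 7 has 1 probe among the 34369 gene probes of the array. One further probed identifier between them, VIT_05s0077g01590, is not on the list and was treated as a neighbour.

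PR10 proteins are small, mostly acidic proteins that stay inside the cell, unlike most other pathogenesis-related families, which are secreted. They share the fold of the birch pollen allergen Bet v 1, with a large cavity that binds hydrophobic ligands such as flavonoids and cytokinins, and some members show ribonuclease activity in vitro. In many plants their genes lie in tandem arrays and are transcribed in response to pathogens, wounding, salt or drought, while other copies are active in healthy organs. The role of each single grapevine copy is not annotated in the sources used here, so the genes are named by identifier. The RefSeq gene table of a later grapevine assembly (ASM3070453v1) names 8 genes PR10, all on chromosome 5, in a stretch of 12 entries that also holds 3 pseudogenes and 1 other protein-coding gene. None of its entries carries an identifier of the cluster, so the array probes were not paired with those names.

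Young leaves of in vitro plantlets of Vitis vinifera cv. Sultana were compared on one-colour arrays, with 3 lines carrying 35S:VvWRKY26 and 3 control lines. The construct drives VvWRKY26, a WRKY transcription factor gene related to TTG2 of Arabidopsis, from the constitutive 35S promoter, and it was delivered transiently by Agrobacterium tumefaciens strain C58C1 under vacuum. Which leaf cells carried it is not known here. The control plantlets, labelled wild type, received the same strain with the vector pK7WG2.0 holding a non-coding sequence. Plantlets were 5 weeks old at infiltration and were sampled 6 days later, and the lines put on arrays were picked for a high or a low VvWRKY26 transcript level. Bacterium and vacuum were thus shared by both groups and no uninfiltrated leaf was measured, so a level below cannot be divided into a basal part and a response to infiltration. In leaf tissue measured as a whole, fewer cells of a type and less RNA per cell cannot be told apart.

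Intensities are given as log2 of the processed spot signal minus the 75th percentile of the same array, so that 0 is the 75th percentile and 1 unit is a doubling. That percentile was 857 to 1475 in the 35S:VvWRKY26 arrays and 799 to 1613 in the control arrays. By their headers the arrays fall into 3 scans that pair a line of one group with a line of the other. Replicate 1 of both groups was read in scan 1. Scan 2 paired 35S:VvWRKY26 replicate 3 with control replicate 2, and scan 3 paired 35S:VvWRKY26 replicate 2 with control replicate 3. In scan 2, 94.9% of gene probes in the 35S:VvWRKY26 array and 94.7% in the control array were well above background, against 73.9% to 77.6% on the other 4 arrays. The headers give 1 slide position to 35S:VvWRKY26 replicates 1 and 3 and another to control replicates 1 and 2, although across genes these pairs correlated with r = 0.95 and 0.90, so the slide entry is uncertain. Probes of the array differ in efficiency, and no probe's level is set against that of another. Nearly identical PR10 copies may also share signal on a probe, which was not tested since probe sequences were not used here.

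The cluster was detected in leaves of both groups. All 7 probes were well above background on all 6 arrays, with 0 saturated and 0 outlier spots among them. Its members differed widely in how far they varied from array to array. Within a group each line was read in a different scan, so line and scan cannot be told apart in that spread. For each of the 7 the SD between control lines exceeded the difference between the group means. Another background correction, normexp with 50 units added to each signal, gave a control SD smaller than the difference for some members. They were VIT_05s0077g01560 (SD 0.32, log2 difference -0.45) and VIT_05s0077g01600 (SD 0.24, log2 difference -1.01), both with low signals. The same correction moved the median log2 difference of all genes to -0.35.

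**Figure D1:**
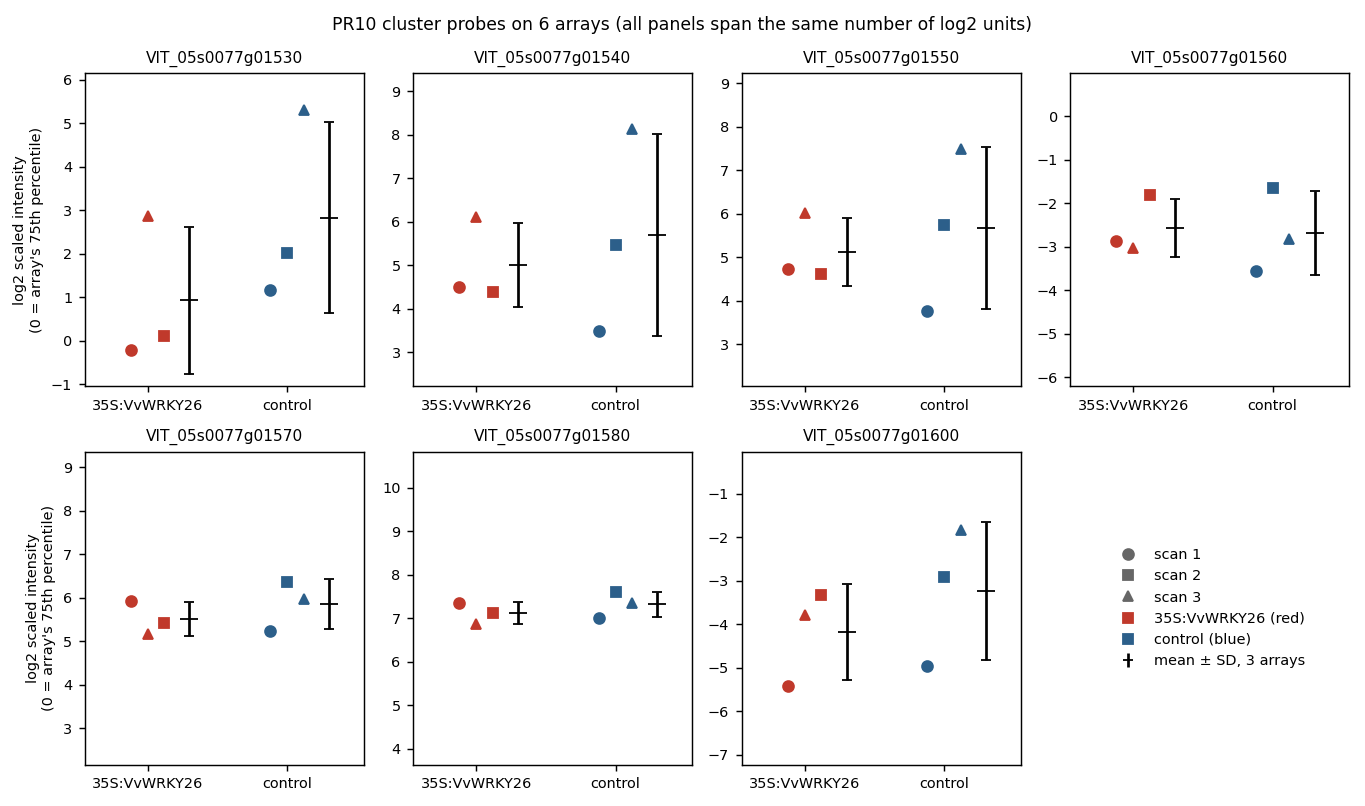
Log2 scaled intensity (vertical axis, 0 is the 75th percentile of the array) of the 7 PR10 probes, 1 panel each with equal span, in 3 35S:VvWRKY26 arrays (red) and 3 control arrays (blue); symbols mark the scan, and bars the mean ± SD of 3 arrays. VIT_05s0077g01530, VIT_05s0077g01540 and VIT_05s0077g01550 spread over 3.72 to 5.52 log2 units, VIT_05s0077g01580 over 0.72.

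VIT_05s0077g01530, VIT_05s0077g01540 and VIT_05s0077g01550 formed the variable part of the cluster. VIT_05s0077g01530 stood at -0.21, 2.87 and 0.11 in 35S:VvWRKY26 replicates 1, 2 and 3, and at 1.16, 2.03 and 5.31 in control replicates 1, 2 and 3. Control replicate 3 was the highest array and 35S:VvWRKY26 replicate 2 the next, and both belong to scan 3, while the lowest array was 35S:VvWRKY26 replicate 1. The groups overlapped, since that second array lay above the other 2 controls.

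VIT_05s0077g01540 gave 4.50, 6.11 and 4.39 in 35S:VvWRKY26 replicates 1 to 3, and 3.49, 5.46 and 8.13 in control replicates 1 to 3. VIT_05s0077g01550 gave 4.73, 6.01 and 4.62 in 35S:VvWRKY26 replicates 1 to 3, and 3.77, 5.75 and 7.49 in control replicates 1 to 3. In both genes the 3 over-expressing lines fell inside the range of the controls, whose lowest and highest arrays were replicates 1 and 3. Among the over-expressing lines the highest scaled intensity was 8.47, 3.28 and 2.62 times the lowest for VIT_05s0077g01530, VIT_05s0077g01540 and VIT_05s0077g01550, against 17.7, 25.0 and 13.2 times among the control lines.

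Control replicate 3 was the highest array for 4 of the 7 members, as it was for 18.3% of the 23460 probes with 6 values, all well above background. For the 3 variable genes it was on top before scaling too. Its unscaled processed signals for VIT_05s0077g01530, VIT_05s0077g01540 and VIT_05s0077g01550 were 31606, 224003 and 143589, the highest of the 6 arrays. They were 8.75, 12.4 and 6.53 times those of the lowest control. That array also had the lowest 75th percentile, and the part of scaling in its values was not tested. These 3 members were also those whose 2 scan 3 arrays lay above the other 4 arrays. The same order held for 11.9% of those probes, and the part of the scan in the result was not tested. A range over the 6 arrays at least as large as that of VIT_05s0077g01550 was found in 3.21% of them. Of the probes well above background throughout, 1.26%, 0.905% and 2.66% had an SD between controls at least as large as those of VIT_05s0077g01530, VIT_05s0077g01540 and VIT_05s0077g01550.

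VIT_05s0077g01570 and VIT_05s0077g01580 varied less from array to array than these 3 genes. VIT_05s0077g01580 gave 7.36, 6.87 and 7.13 in 35S:VvWRKY26 replicates 1 to 3, and 7.01, 7.59 and 7.34 in control replicates 1 to 3. The whole range over the 6 arrays was 0.72 log2 units, and 76.7% of the probes well above background throughout had a larger or equal SD between controls. VIT_05s0077g01570 gave 5.93, 5.17 and 5.43 in 35S:VvWRKY26 replicates 1 to 3, and 5.24, 6.36 and 5.98 in control replicates 1 to 3. Its SD between controls, 0.57, was near the median of 0.53 over the probes well above background throughout, of which 46.3% had an SD at least as large. For both genes control replicate 2 was the highest array and the groups overlapped. The lowest array was 35S:VvWRKY26 replicate 2, which in the 3 variable genes was the second highest.

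VIT_05s0077g01560 and VIT_05s0077g01600 lay below the 75th percentile on every array. VIT_05s0077g01560 gave -2.88, -3.04 and -1.81 in 35S:VvWRKY26 replicates 1 to 3, and -3.57, -1.66 and -2.83 in control replicates 1 to 3. Both scan 2 arrays were the highest for this gene, and they are also the arrays with most probes above background, a link that was not tested. VIT_05s0077g01600 gave -5.42, -3.79 and -3.33 in 35S:VvWRKY26 replicates 1 to 3, and -4.97, -2.91 and -1.84 in control replicates 1 to 3. Its control values spread over 3.13 log2 units, with control replicate 3 again on top, and for both genes the groups overlapped. Signals of this probe were only 34.6 to 224 units before scaling, and under another background correction (normexp) its SD between controls was 0.24 in place of 1.59.

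Over the 7 genes the median SD was 0.77 among the over-expressing lines and 1.59 among the controls. The second median is that of the dim VIT_05s0077g01600, and with normexp correction the median among the controls was 0.73. Over all probes well above background on the 6 arrays the medians were 0.42 among the over-expressing lines and 0.53 among the controls, without that correction.

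To ask whether over-expression of VvWRKY26 altered the cluster, the groups were compared in limma over all genes. No member passed the test. Of the 34369 genes, 0 passed an adjusted p of 0.05 (0%), and 355 had an unadjusted p under 0.05 (1.03%). Of the 7 members, 0 had an unadjusted p under 0.05. The groups were apart without overlap in 0 of the 7, against 4.7% of the genes with 6 values. The probe of VvWRKY26 itself (VIT_08s0040g03070) gave 3.32 to 3.69 in the 35S:VvWRKY26 arrays and 2.57 to 3.25 in the control arrays, with a log2 difference of 0.49 (standard error 0.34). The arrays of the groups did not overlap for this probe, a level by which the lines had been picked. Its log2 differences within scans 1, 2 and 3 were 0.28, 0.07 and 1.12, and 0.17 without scan 3. The paper reports the over-expression from RT-PCR and qPCR. Whether this probe reads the transcript of the construct was not tested.

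The log2 difference was negative for 6 of the 7 members, with a median of -0.55, beside a median of -0.05 over all genes, of which 55.4% had a negative value. Without control replicate 3 it was negative for 4 of the 7, with a median of -0.18, and without control replicate 1 the median was -1.50. VIT_05s0077g01530 had the value farthest from 0. It averaged 0.93 ± 1.69 in the 35S:VvWRKY26 lines and 2.83 ± 2.19 in the control lines (SD, 3 arrays each), a log2 difference of -1.91 with a standard error of 1.35 (95% interval -5.22 to 1.40; adjusted p = 0.999983 in limma). As a fold, this is 3.75 times lower with an interval that includes no difference. An exact permutation test of the 6 values gave a two-sided p of 0.3, where 0.1 is the smallest that 3 arrays against 3 allow.

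VIT_05s0077g01540 averaged 4.999 ± 0.96 in the 35S:VvWRKY26 lines and 5.69 ± 2.33 in the control lines (SD, 3 arrays each). Its log2 difference was -0.70 (standard error 1.23, 95% interval -3.72 to 2.33). VIT_05s0077g01550 averaged 5.12 ± 0.77 in the 35S:VvWRKY26 lines and 5.67 ± 1.86 in the control lines, a log2 difference of -0.55 (standard error 1.00, 95% interval -3.005 to 1.91). The sign of both values rested on 1 array. Without control replicate 3 they were 0.52 and 0.36, and that of VIT_05s0077g01530 was -0.67.

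The intervals of VIT_05s0077g01570 and VIT_05s0077g01580 were narrower. VIT_05s0077g01580 averaged 7.12 ± 0.24 in the 35S:VvWRKY26 lines and 7.32 ± 0.29 in the control lines (SD, 3 arrays each), a log2 difference of -0.20 with a 95% interval of -1.01 to 0.62. VIT_05s0077g01570 averaged 5.51 ± 0.39 in the 35S:VvWRKY26 lines and 5.86 ± 0.57 in the control lines, a log2 difference of -0.35 with an interval of -1.41 to 0.71. A 2-fold lower level thus lay just inside the interval of the first of these genes and inside that of the second. VIT_05s0077g01600 had a log2 difference of -0.94 (interval -3.30 to 1.42) and VIT_05s0077g01560 one of 0.11 (interval -1.43 to 1.65). The exact permutation p was 0.4 or more for each of the 6 members other than VIT_05s0077g01530.

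Within scans, where an over-expressing line was set against the control line read with it, the members behaved differently from one another. VIT_05s0077g01530 was lower in the 35S:VvWRKY26 line of each scan, by log2 differences of -1.37, -1.91 and -2.43 in scans 1, 2 and 3. VIT_05s0077g01600 was likewise lower in each, with -0.45, -0.42 and -1.95, on signals of only 34.6 to 224 units before scaling. Such a uniform sign in the lower direction was met in these 2 of the 7 members and in 14.3% of all genes.

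With scan as a block, the standard error of VIT_05s0077g01530 was 0.33 in place of 1.35 and its unadjusted p in limma was 0.00203 (95% interval -2.75 to -1.06), while the adjusted p over all genes was 0.876185. It was the only member with an unadjusted p under 0.05 in that fit (1 of 7), in which 5.3% of all genes were under that level. For the next member, VIT_05s0077g01600, the unadjusted p in that limma fit was 0.0716. Over the 4 arrays of scans 1 and 2 alone, a subset formed after the data were seen, the log2 difference of VIT_05s0077g01530 was -1.64.

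The other 5 members had opposite signs in different scans. VIT_05s0077g01540 stood at 1.01, -1.07 and -2.02 in scans 1, 2 and 3, and VIT_05s0077g01550 at 0.96, -1.13 and -1.48. VIT_05s0077g01570 and VIT_05s0077g01580 followed the same order of signs, with 0.69, -0.94 and -0.81 for the first and 0.34, -0.46 and -0.47 for the second. VIT_05s0077g01560 had 0.69, -0.15 and -0.21.

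**Figure D2:**
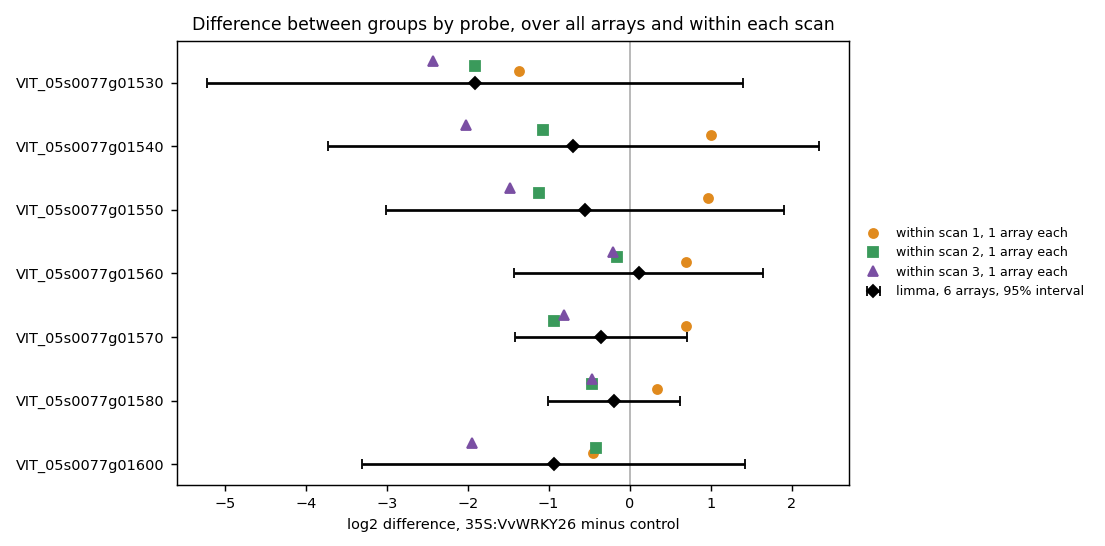
Log2 difference, 35S:VvWRKY26 minus control (horizontal axis), for the 7 PR10 probes (rows); diamonds with bars are the limma estimate over 6 arrays with its 95% interval, and coloured symbols the difference between the 2 arrays of each scan. All 7 intervals include 0, and VIT_05s0077g01530 and VIT_05s0077g01600 lie left of 0 in each scan.

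Across the 6 arrays the members moved in 2 sets rather than as a single unit. These correlations describe 6 arrays that share scans and plantlet lines, and no test is attached to them. VIT_05s0077g01540 and VIT_05s0077g01550 followed each other closely (r = 0.99), and VIT_05s0077g01530 had r = 0.91 and 0.88 with them. VIT_05s0077g01570 and VIT_05s0077g01580 formed the second set (r = 0.98), with r between 0.05 and 0.41 to the first set. VIT_05s0077g01600, a dim probe, was nearer to the first set (r from 0.76 to 0.81), and VIT_05s0077g01560 nearer to the second (r = 0.54 and 0.58).

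High coefficients were common with 6 arrays, so the same values were ranked over 23459 probes. VIT_05s0077g01550 was the 8th closest probe to VIT_05s0077g01540, and VIT_05s0077g01570 the 4th closest to VIT_05s0077g01580. VIT_05s0077g01530, in spite of r = 0.91, ranked only 1116 in likeness to VIT_05s0077g01540.

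**Figure D3:**
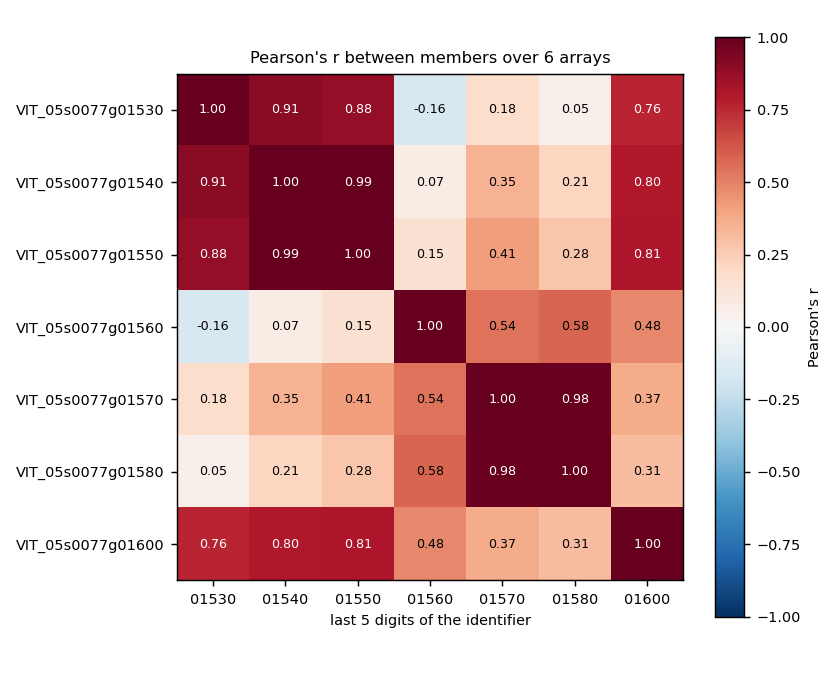
Pearson's r between the log2 scaled intensities of the 7 PR10 probes over 6 arrays (rows and columns in identifier order, colour from -1 to 1). VIT_05s0077g01530 to VIT_05s0077g01550 form 1 block with r from 0.88 to 0.99, and VIT_05s0077g01570 with VIT_05s0077g01580 another with r = 0.98.

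The probed identifiers on either side of the cluster, 10 before, 10 after and VIT_05s0077g01590 between its members, were described in the same way. None of the 21 had an unadjusted p under 0.05, and their median log2 difference was -0.20. The median SD between controls was 0.72 for the 10 before and 1.83 for the 10 after. The 10 after include probes near background. VIT_05s0077g01690 followed the mean of VIT_05s0077g01530, VIT_05s0077g01540 and VIT_05s0077g01550 with r = 0.97 over the 6 arrays. It gave -3.74, -2.31 and -4.15 in 35S:VvWRKY26 replicates 1 to 3, and -3.90, -1.61 and 0.68 in control replicates 1 to 3, with control replicate 3 once more the highest. VIT_05s0077g01680 (r = 0.92) and VIT_05s0077g01720 (r = 0.89) had the same highest array. In all, control replicate 3 was the highest measured array for 6 of the 21, 3 before and 3 after the cluster. VIT_05s0077g01630 could not be judged, since its control replicate 3 spot was an outlier left out. The unscaled signal of that spot, 43867, was the highest of its 6. Over the probes with 6 values, all well above background, control replicate 3 was highest for 18.3%.

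Before the cluster, VIT_05s0077g01510 had r = 0.92 but moved over only 0.61 log2 units, and VIT_05s0077g01470 had r = 0.90 with 35S:VvWRKY26 replicate 2 as its highest array. VIT_05s0077g01520, the nearest identifier before the cluster, was well above background on 4 of the 6 arrays and had a log2 difference of -1.40 (standard error 1.48). VIT_05s0077g01620, the nearest after it, was so on 2 arrays. VIT_05s0077g01590 was so on 5 arrays, with a log2 difference of -0.065.

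**Figure D4:**
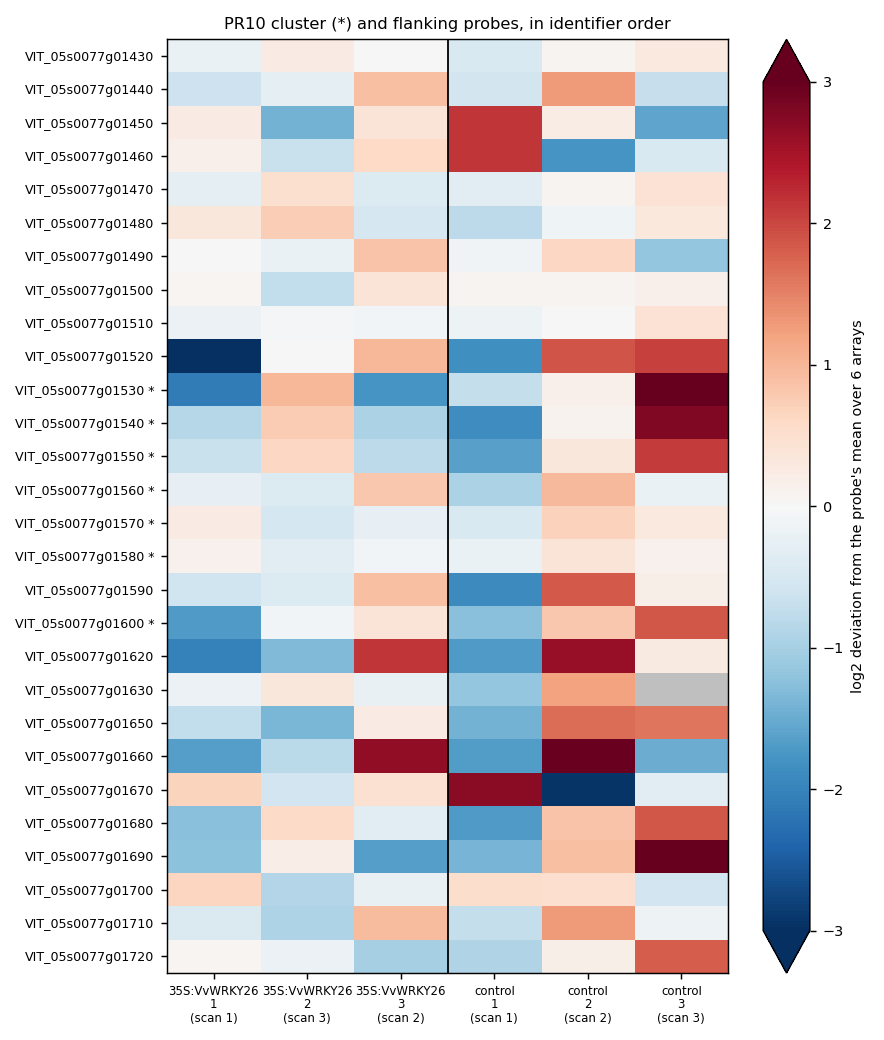
Deviation of log2 scaled intensity from the mean of each probe over 6 arrays (colour, clipped at 3), for the 7 PR10 probes (asterisks) and 21 flanking probes in identifier order (rows), with 35S:VvWRKY26 arrays left and control arrays right. The grey cell is an outlier spot left out, so the row of VIT_05s0077g01630 is not counted for control replicate 3. Control replicate 3 is the highest column for 4 of the 7 PR10 probes and for 6 of the 21 flanking probes, 3 on either side.

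A few other defence genes, as the study's gene table annotates them, were mixed. All of them except VIT_03s0038g00430 have identifiers that begin with VIT_00s, so they do not stand for all defence genes of the array. The 4 genes annotated as PR1 or its Allergen V5 family, whose products are secreted, had a median log2 difference of 0.94, and 1 of them had an unadjusted p under 0.05. For VIT_00s0207g00160 the 35S:VvWRKY26 arrays gave 1.22, 1.15 and 1.64 and the control arrays 0.36, -0.08 and -0.28, without overlap (log2 difference 1.34, standard error 0.34; adjusted p = 0.999983 in limma). The log2 differences of VIT_00s0207g00130, VIT_00s0207g00140 and VIT_00s0207g00170 were 0.82, 0.18 and 1.06. The study listed 3 of these 4 as up-regulated on these same arrays, so their direction is not independent evidence.

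Of 7 other genes with a defence annotation, 3 had a positive and 4 a negative log2 difference, and 0 an unadjusted p under 0.05. DIR1 (VIT_00s0333g00050), known in Arabidopsis for systemic acquired resistance, gave 4.47, 3.67 and 3.55 in 35S:VvWRKY26 replicates 1 to 3, and 4.96, 0.05 and 2.34 in control replicates 1 to 3. Its highest and lowest arrays were control replicates 1 and 2, in another order than those of the PR10 genes. EDS5 (VIT_03s0038g00430), a transporter of the salicylic acid pathway in Arabidopsis, stayed between -1.91 and -1.30 on all 6 arrays. The class V chitinase VIT_00s0540g00020 had, as VIT_05s0077g01540 did, control replicate 1 lowest at -2.78 and control replicate 3 highest at 0.69, while its over-expressing lines lay between -0.27 and 0.21. The second chitinase gene, VIT_00s0540g00050, had log2 -3.20 in control replicate 3, near its lowest value of -3.47. A wound-responsive gene, VIT_00s0189g00020, averaged 2.54 in the 35S:VvWRKY26 lines and 2.78 in the control lines. The disease resistance-responsive genes VIT_00s0317g00070 and VIT_00s0317g00090 had log2 differences of -1.28 and -0.92, the second with 3 of 6 spots above background.

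Leaf identity was checked on 4 photosynthesis genes of the nucleus, all well above background on all 6 arrays. The photosystem II gene PsbO (VIT_00s0207g00210) lay at 7.37, 7.26 and 7.2 in the over-expressing lines and between 7.17 and 7.38 in the controls. The light-harvesting gene LHCB3 (VIT_00s0181g00180) was uneven, with 2.90, 2.63 and 4.24 in 35S:VvWRKY26 replicates 1 to 3, and 4.87, 0.99 and 1.78 in control replicates 1 to 3. Control replicate 1, the highest array for LHCB3, was the lowest for VIT_05s0077g01540 and VIT_05s0077g01550. The second LHCB3 probe, VIT_00s0181g00200, had the same highest array at 4.64, and the photosystem I gene PSAF (VIT_00s0125g00280) too at 6.60. Control replicate 3, the highest for those PR10 genes, was the lowest for PSAF at 5.41 and for PsbO at 7.17. It was not the lowest for the LHCB3 probes, whose lowest array was control replicate 2 at 0.99 and 1.24. Of 3 D-type cyclin genes, as a sign of dividing cells, 2 had probes above background on 4 arrays, and log2 differences were -0.42, -0.47 and 0.36 for VIT_00s0194g00280, VIT_00s0199g00210 and VIT_00s0203g00160. The part of leaf condition in the PR10 values was not tested.

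The probes whose 6 values were most like the mean of the 7 members were VIT_00s0179g00260 (r = 0.997), XLOC_017279 (r = 0.996), VIT_00s0187g00290 (r = 0.996), VIT_11s0016g04050 (r = 0.993) and VIT_07s0005g03670 (r = 0.993), among 23453 compared. With so few arrays 910 probes had r over 0.9. Of the 5, XLOC_017279 moved the most, with -0.58, 0.90 and 0.02 in 35S:VvWRKY26 replicates 1 to 3, and -1.39, 1.57 and 3.07 in control replicates 1 to 3. All 5 had control replicate 3 highest and control replicate 1 lowest, as did VIT_05s0077g01540. The members' mean, by which the 5 were picked, has the same highest and lowest arrays, so this order largely follows from the choice.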

How the data were processed

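Leaf RNA of 6 Sultana lines was hybridised to a custom Agilent array. For each array the authors deposited intensities from Feature Extraction 10.5.1.1, background-subtracted and spatially detrended, and for the series a table of intensities normalised on the 75th percentile. For all 34369 genes that table's values for 35S:VvWRKY26 replicate 2 lay within 1% or 0.02 units of the average of its replicates 1 and 3, and it served only as an alternative.

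Processed signals were divided by the 75th percentile of their array and taken to log2. Groups were compared with limma 3.58.1 (R 4.3.3), without covariates, and p-values were adjusted by Benjamini-Hochberg across the genes. Outlier spots were set to missing, and 1417 control spots per array were not used. Figures were drawn with matplotlib 3.10.9. The fit was first tested on simulated data whose spread was set far below that of the arrays. That test checks the code and does not measure power on these arrays. Precision is limited by the number of arrays. With nothing said of separate cultures, p-values without a scan block measure the spread between these lines together with that between their scans. Replicate numbers did not pair the arrays (r of deviations 0.45, 0.01 and -0.41 for replicates 1, 2 and 3), whereas arrays of a scan deviated together (0.45, 0.25 and 0.59 in scans 1, 2 and 3).

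The members, lists and alternatives were chosen with earlier results of these data known. Named are all members, all listed genes, the nearest neighbours, the 5 probes most like the members' mean and, chosen after their values were seen, 6 further neighbours. Alternatives were normexp correction, quantile and median scaling, the authors' table, a filter on dim probes, array weights, outliers kept, eBayes with a trend on intensity, replicate, scan or slide as a block, each array left out, the methods' t-test and dim spots at the lowest measured signal.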

Additional observations from a re-analysis of the deposited data

How the results depend on the processing

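In each of the 20 alternatives 0 genes passed the adjusted threshold, by limma or by the methods' t-test, while the number with an unadjusted p under 0.05 moved between 200 and 1822 (355 as reported, 787 with that t-test). The median log2 difference of the 7 members stayed negative, between -1.50 without control replicate 1 and -0.08 without the 2 arrays of scan 3, which was chosen after seeing the data. It was -0.55 with a replicate block, which changed no call. Between 4 and 7 members had a negative difference, the fewest without control replicate 3. The number of members with an unadjusted p under 0.05 was 1, in each case VIT_05s0077g01530, with scan as a block, with slide as a block, in the authors' table and without scan 3. In that table the 35S:VvWRKY26 group holds only 2 distinct samples, so its spread is understated. VIT_05s0077g01560 turned to -0.45 with normexp correction, -0.10 with array weights, -0.33 without control replicate 1 and -0.27 without 35S:VvWRKY26 replicate 3, and with single arrays left out it lay between -0.33 and 0.62. Without control replicate 3, VIT_05s0077g01540 and VIT_05s0077g01550 turned to 0.52 and 0.36, and with single arrays left out their lowest values were -1.80 and -1.50. VIT_05s0077g01530 kept its sign in all 20, between -2.88 and -0.67. The median SD between controls was 0.73 with normexp correction, against 1.59. That correction moved the median of all genes to -0.35, and leaving out single arrays moved it to between -0.27 and 0.19. The cause of these shifts was not tested. Dim probes such as VIT_05s0077g01600 are limited by their signal over background.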
